A study of Rattus norvegicus with 16 samples.

Results

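The miR-29 family was followed across 2 brain regions and 2 lines of rats, by counting mature microRNAs (miRNAs), the short RNAs that hold down the messenger RNAs they pair with. Its members were taken by name: they are the entries of the count tables named rno-miR-29a, rno-miR-29b or rno-miR-29c, with any locus or arm suffix, and 7 of the 722 listed miRNAs met this rule. The tissue was amygdala, a forebrain region of fear and emotional learning, or dorsal raphe, the midbrain nucleus whose neurons send serotonin to the forebrain. High responder rats are a line bred for high locomotor activity in a new environment, and low responder rats a line bred for low activity. The 4 groups were high responder amygdala, low responder amygdala, high responder dorsal raphe and low responder dorsal raphe, with 4 libraries each and 16 in all. All rats were 60 days old and no treatment is given, so the groups differ in line and region alone as far as the labels go. The labels do not say that the libraries of a group came from separate rats, or whether tissue was pooled, and a p-value here therefore covers only the spread among the libraries. A library of whole tissue mixes cell types, and fewer cells of a type cannot be told apart from less of a miRNA per cell.

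A miRNA hairpin is cut into a 5p and a 3p arm, and in the miR-29 genes the 3p arm is the one that is loaded and acts. Targets are found mainly through the seed, the bases near the 5′ end that pair with the messenger RNA. The miR-29 3p arms are abundant in mature brain, where they are known from both neurons and astrocytes. In mouse neurons miR-29b restrains genes that trigger cell death as the neurons mature, and in human cells the family represses DNA methyltransferases, collagens and other genes of the extracellular matrix.

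Of the 7 members 6 had a mature sequence in RefSeq (build GRCr8) under the same name, and miR-29b-2-5p was matched by its gene and arm. The 3 3p arms come first because they hold nearly all of the counts. Sequences run 5′ to 3′, and capitals mark the seed, bases 2 to 8.
miR-29a-3p: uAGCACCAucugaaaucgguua
miR-29b-3p: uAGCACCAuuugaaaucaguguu
miR-29c-3p: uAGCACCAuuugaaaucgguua
The 3 arms share the seed AGCACCA, and none of the other names among the 693 searched carried it. Counting from 1 at the 5′ end, miR-29a-3p and miR-29c-3p differ by 1 substitution, C10U (miR-29a-3p has the first base). miR-29c-3p and miR-29b-3p differ by G18A, U21G and A22U over the first 22 bases, and miR-29b-3p has 23 bases. The arms are thus the same in the seed and differ only outside it.

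The 5p arms are shown because their sequences bear on how far their counts can be told apart.
miR-29a-5p: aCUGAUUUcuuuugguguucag
miR-29b-1-5p: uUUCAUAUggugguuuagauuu
miR-29b-2-5p: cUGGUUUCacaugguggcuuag
miR-29c-5p: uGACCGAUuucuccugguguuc
Each of the 4 5p arms had a seed of its own, found in no other name of the table. The genes lie in pairs. Mir29a and Mir29b1 are on the minus strand of chromosome 4, with 291 bases between their hairpins, and Mir29b2 and Mir29c are on the plus strand of chromosome 13, with 447 bases between them (GRCr8). miR-29b-3p is the same from both of its genes and has a single row in the count tables. The study's own build is not given in the sources used here.

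The libraries held 1741167 to 8134915 counts. Levels are CPM, the share of a library's counts times 1000000, after edgeR's trimmed-mean (TMM) scaling, and differences are log2 fold changes from edgeR's quasi-likelihood test, called at an adjusted p of 0.05 over the 639 miRNAs that passed a filter on low counts. All 7 members passed it. Replicate 4 of low responder dorsal raphe and replicate 1 of high responder amygdala stood apart, with a root mean square deviation from their group means of 1.03 and 0.973 on the log2 scale, against 0.307 to 0.874 in the other 14 libraries. The first has a TMM factor of 0.596, which raises its scaled levels, and each had the lowest total of its group. For most of the region differences described below, the value without these libraries is given beside the main one.

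The family made up 0.824% to 3.04% of the counts of a library, and its 3p arms held 97.6% to 98.95% of the family's counts. miR-29a-3p alone held 85.8% to 92.5% of them in 15 libraries and 72.3% in low responder dorsal raphe replicate 4. It ranked 7th to 29th among the miRNAs of its library, miR-29b-3p 55th to 96th and miR-29c-3p 112th to 191st. The 5p arms ranked from 182nd to 376th. The smallest count behind any value was 19, for miR-29a-5p, so no member was near the limit of detection.

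miR-29a-3p, in human cells a repressor of collagen genes, was the most abundant member in every library. In high responder amygdala its levels were 6549, 10510, 22602 and 25772 CPM in replicates 1 to 4. In low responder amygdala they were 12026, 19618, 25506 and 24661 CPM. High responder dorsal raphe had 13846, 17734, 22549 and 19768 CPM, and low responder dorsal raphe 25316, 20308, 24008 and 11484 CPM. The 4 groups overlapped, and the means ran from 16358 ± 9274 CPM in high responder amygdala to 20453 ± 6190 CPM in low responder amygdala (SD, n = 4 each), less than 1 SD apart.

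miR-29b-3p (rno-miR-29b-3p), the arm that in mouse neurons restrains cell death genes, had 802, 1031, 1160 and 1417 CPM in high responder amygdala and 898.5, 1160, 1337 and 1488 CPM in low responder amygdala. In high responder dorsal raphe it had 1095, 1326, 2120 and 1401 CPM, and in low responder dorsal raphe 1690, 1411, 2083 and 3864 CPM. The last value, of replicate 4, was the highest of all 16 libraries, although the same library had the lowest miR-29a-3p of its group. Before TMM scaling it was 2301 CPM, close to 2278 CPM in high responder dorsal raphe replicate 3. Low responder dorsal raphe then had 1928 ± 342 CPM (SD, n = 4). The group means were 1103 ± 256 CPM in high responder amygdala, 1221 ± 253 in low responder amygdala, 1486 ± 443 in high responder dorsal raphe and 2262 ± 1103 in low responder dorsal raphe (SD, n = 4 each). Neighbours in this order differed by less than the larger of their SDs.

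miR-29c-3p had 102, 199, 413 and 525 CPM in high responder amygdala and 257, 409, 436 and 487.5 CPM in low responder amygdala. It had 410.5, 522, 746 and 585 CPM in high responder dorsal raphe and 681, 559.8, 731 and 304 CPM in low responder dorsal raphe. The 2 raphe groups had nearly the same mean, 566 ± 140 CPM in high responders and 569 ± 191 CPM in low responders, above 309.8 ± 194 CPM in high responder amygdala and 397 ± 99.1 CPM in low responder amygdala (SD, n = 4 each). Single libraries of the regions overlapped.

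**Figure D1:**
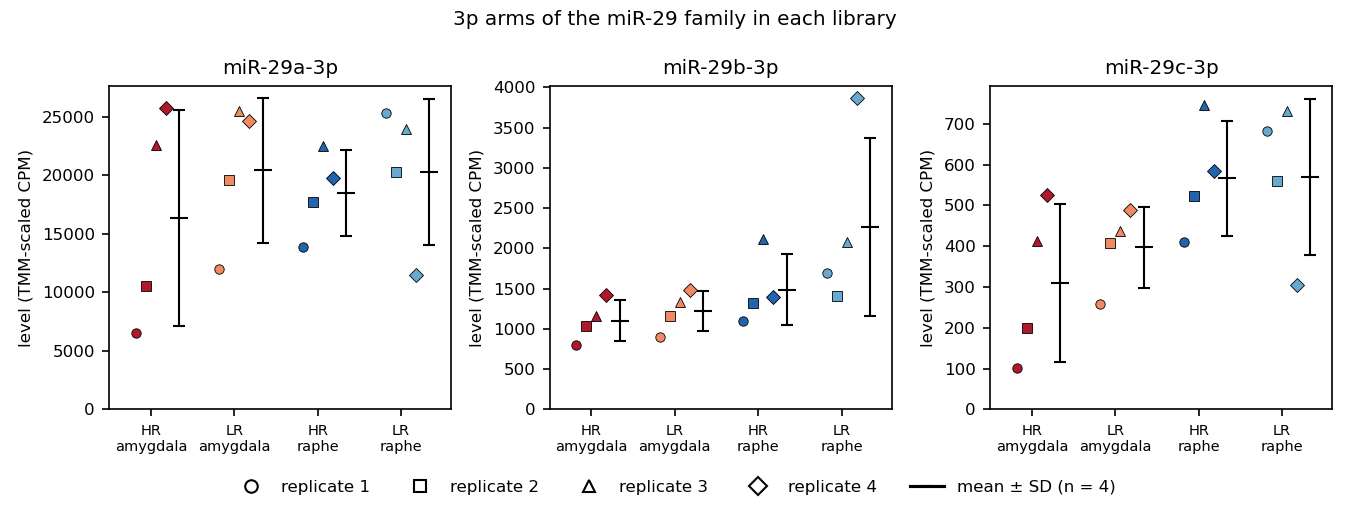
Levels of the 3 3p arms in each of the 16 libraries, as TMM-scaled CPM on linear axes from 0, with the mean ± SD of each group (n = 4). Replicate 4 of low responder dorsal raphe is the lowest of its group for miR-29a-3p (11484 CPM) and the highest of all libraries for miR-29b-3p (3864 CPM). Before scaling its miR-29b-3p was 2301 CPM, close to 2278 CPM in high responder dorsal raphe replicate 3.

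The comparison of amygdala with dorsal raphe asks how the family differs between the regions. Averaged over the lines, 1 of the 7 members was called in edgeR's quasi-likelihood test, where 24.3% of the 639 miRNAs tested were called and 14.9% were called lower in amygdala. That member was miR-29b-3p, at 1162 ± 244 CPM in amygdala against 1874 ± 882 CPM in dorsal raphe (SD, n = 8 each). Its log2 fold change was -0.66 ± 0.23 (SE), with an adjusted p of 0.0459 in edgeR. A share of 1 in 7 is no more than the background. With an unadjusted p under 0.05 there were 4 members, against 39% of all miRNAs. Of the 7 fold changes 6 were negative and their median was -0.66, against a median of -0.08 and 53.4% negative over all miRNAs tested. The 7 are not independent, as miR-29b-1-5p and miR-29b-2-5p hold nearly the same counts. Without both libraries that stand apart miR-29a-3p (0.13), miR-29c-5p (0.0816) and miR-29a-5p (0.38) were positive, and the other members stayed negative.

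The call of miR-29b-3p was lost in 14 of the 16 fits that left out 1 library, where its log2 fold change ran from -0.71 to -0.42 and its adjusted p from 0.0338 to 0.191. Without low responder dorsal raphe replicate 4 the fold change was -0.43 (adjusted p = 0.0938 in edgeR), without high responder amygdala replicate 1 it was -0.45 (adjusted p = 0.146) and without high responder dorsal raphe replicate 3 it was -0.42 (adjusted p = 0.191). Without both libraries that stand apart it was -0.22 (adjusted p = 0.305), where the median of all miRNAs was 0.22.

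The other 3p arms were not called. miR-29c-3p had 354 ± 149.8 CPM in amygdala against 567 ± 155 CPM in dorsal raphe (SD, n = 8 each), a log2 fold change of -0.69 ± 0.30 (SE) with an adjusted p of 0.0947 in edgeR. With 1 library left out it ran from -0.79 without high responder amygdala replicate 4 (adjusted p = 0.0446), the 1 such fit that called it, to -0.43 without high responder amygdala replicate 1 (adjusted p = 0.229). Without both libraries that stand apart it was -0.47 (adjusted p = 0.0839). miR-29a-3p had 18406 ± 7620 CPM in amygdala against 19377 ± 4831 CPM in dorsal raphe (SD, n = 8 each), with a log2 fold change of -0.08 and a 95% interval of -0.65 to 0.49. Its fold change was 0.13 without both libraries that stand apart. No member had 8 amygdala libraries that were all above or all below the 8 raphe libraries, as 6.57% of all miRNAs tested had.

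miR-29b-1-5p, the partner arm of miR-29b-3p from the Mir29b1 gene, had 26.6, 30.3, 52.4 and 72.0 CPM in high responder amygdala and 39.0, 68.2, 74.4 and 83.3 CPM in low responder amygdala. It had 73.4, 87.7, 104 and 108 CPM in high responder dorsal raphe and 113, 97.0, 98.6 and 36.0 CPM in low responder dorsal raphe. Its highest amygdala value thus lay above 2 raphe values, 1 of them from the library of low TMM factor. The log2 fold change averaged over the lines was -0.71 (SE 0.26, adjusted p = 0.0576 in edgeR). It passed with DESeq2 (-0.65, adjusted p = 0.0435), with library totals as the scaling (-0.80, adjusted p = 0.0456) and without both libraries that stand apart (-0.56, adjusted p = 0.0365). In the 16 fits that left out 1 library it ran from -0.79 to -0.51, the smallest being without high responder amygdala replicate 1, and the adjusted p from 0.0190 to 0.191.

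miR-29b-2-5p gave almost the same values, with a log2 fold change of -0.73 ± 0.27 (SE) and an adjusted p of 0.0573 in edgeR, and is not independent of it. In all 16 libraries miR-29b-1-5p had 2 to 17 counts more than miR-29b-2-5p, or 1.20% to 6.49% of the miR-29b-2-5p count. Over the 400 miRNAs with at least 10 counts in every library, 5 of 79800 pairs, 0.00627%, had counts within 10% of each other in every library. The other 4 pairs were miR-129-1-3p with miR-129-2-3p, miR-138-1-3p with miR-138-2-3p, miR-344b-1-3p with miR-344b-2-3p and miR-664-1-5p with miR-664-2-5p, each also from 2 genes of 1 name. The RefSeq hairpins of the miR-29b genes are printed for this reason, with the mature arms in capitals.
Mir29b1: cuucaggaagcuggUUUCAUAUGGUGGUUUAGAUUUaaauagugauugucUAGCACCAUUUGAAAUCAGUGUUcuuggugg
Mir29b2: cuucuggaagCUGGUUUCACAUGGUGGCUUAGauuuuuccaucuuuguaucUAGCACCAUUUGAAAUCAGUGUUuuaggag
Over the 26 bases that both 5p arms span the hairpins were the same at 24 and differed at 2, and the annotated start of miR-29b-1-5p lies 4 bases after that of miR-29b-2-5p. The sources used here do not give how reads that match several miRNAs were counted, and the 2 rows may hold many of the same reads, so neither gene's own level is known.

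miR-29a-5p and miR-29c-5p showed no called region difference. miR-29c-5p had 113, 134, 159 and 149.6 CPM in high responder amygdala and 90.8, 96.8, 119.7 and 108 CPM in low responder amygdala. It had 106, 125, 187 and 133 CPM in high responder dorsal raphe and 132, 119, 134 and 139 CPM in low responder dorsal raphe. Its log2 fold change averaged over the lines was -0.16 with a 95% interval of -0.52 to 0.20, while its 3p partner had -0.69. Without both libraries that stand apart miR-29c-5p had 0.0816. miR-29a-5p ran from 15.2 to 24.8 CPM in amygdala and from 13.4 to 25.2 CPM in dorsal raphe, with a log2 fold change of 0.19 and a 95% interval of -0.20 to 0.57. It had 0.38 (adjusted p = 0.0839 in edgeR) without both libraries that stand apart.

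**Figure D2:**
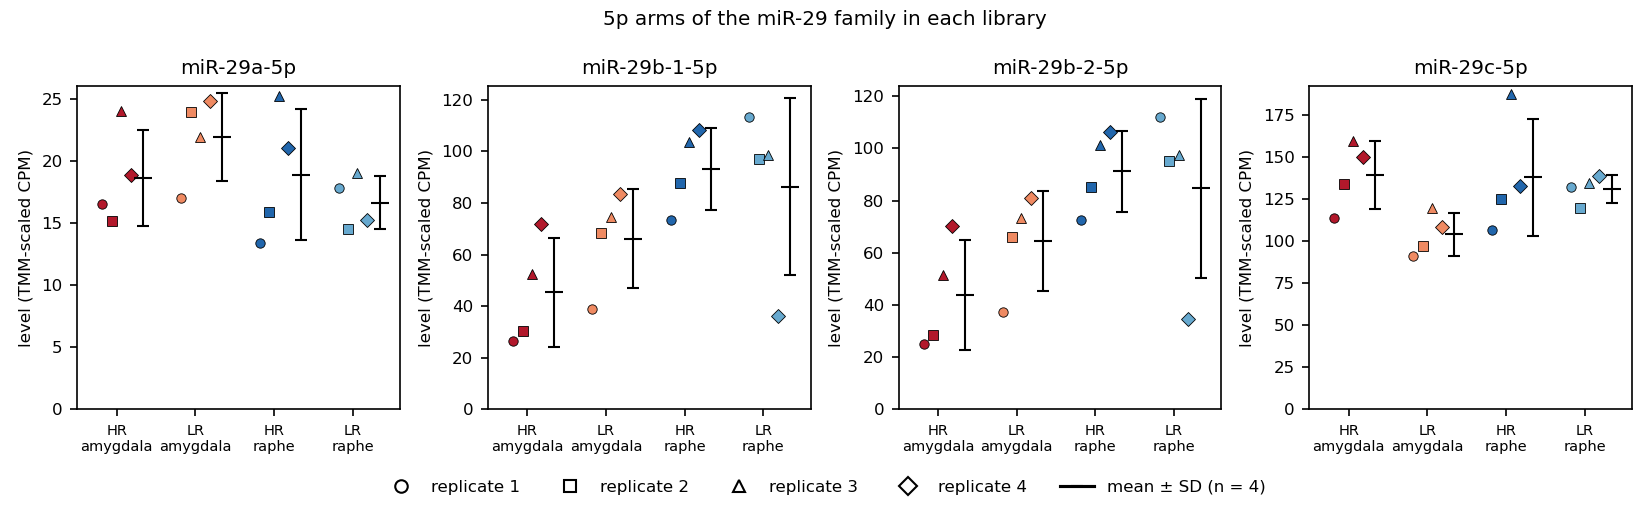
Levels of the 4 5p arms in each of the 16 libraries, as TMM-scaled CPM on linear axes from 0, with the mean ± SD of each group (n = 4). miR-29b-1-5p and miR-29b-2-5p have nearly the same pattern, with the 4 high responder amygdala libraries below the 4 high responder dorsal raphe libraries.

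Within high responders 0 of the 7 members were called between the regions, where 13.1% of all miRNAs were. miR-29b-1-5p had 45.3 ± 21.1 CPM in amygdala against 93.2 ± 15.9 CPM in dorsal raphe (SD, n = 4 each), a log2 fold change of -1.03 (SE 0.38, adjusted p = 0.0876 in edgeR). It and miR-29b-2-5p (-1.05) were the members whose amygdala libraries all lay below the raphe libraries, as 12.4% of all miRNAs did in that direction and 23.5% in either. Both passed with DESeq2, with library totals as the scaling, and in edgeR without high responder amygdala replicate 4 or without low responder dorsal raphe replicate 4. Neither passed in the other 14 fits that left out 1 library, where the adjusted p reached 0.261, or without both libraries that stand apart, where miR-29b-1-5p had -0.72 (adjusted p = 0.0854). Without high responder amygdala replicate 1 it had -0.81 (adjusted p = 0.234). miR-29c-3p had -0.87 (adjusted p = 0.183), which was -0.54 without high responder amygdala replicate 1 and -0.45 without both libraries. miR-29b-3p had -0.43 (adjusted p = 0.377), which was -0.25 without high responder amygdala replicate 1, -0.14 without high responder dorsal raphe replicate 3 and -0.17 without both libraries. The members with an unadjusted p under 0.05 were 2, against 29.1% of all miRNAs, and DESeq2 called 2.

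Within low responders 0 of the 7 members were called, where 14.1% of all miRNAs were, and 1 had an unadjusted p under 0.05, against 27.7% of all miRNAs. That member was miR-29b-3p, at 1221 ± 253 CPM in amygdala against 2262 ± 1103 CPM in dorsal raphe (SD, n = 4 each), a log2 fold change of -0.89 (SE 0.33, adjusted p = 0.0781 in edgeR). With the replicate numbers as a block it was -0.84 (adjusted p = 0.0438 in edgeR), but the numbers were not found to pair these groups. Deviations of same-numbered libraries from their group means had correlations of -0.409, -0.0365, 0.143 and -0.412. Without low responder dorsal raphe replicate 4 the log2 fold change was -0.39, and without both libraries that stand apart -0.26. DESeq2 called 0 members, and 0 had regions without overlap, against 19.2% of all miRNAs. miR-29b-1-5p had -0.39 and miR-29c-3p -0.52, which were -0.41 and -0.49 without both libraries. The interaction of line and region, which tests whether the lines differ in this, called no member.

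**Figure D3:**
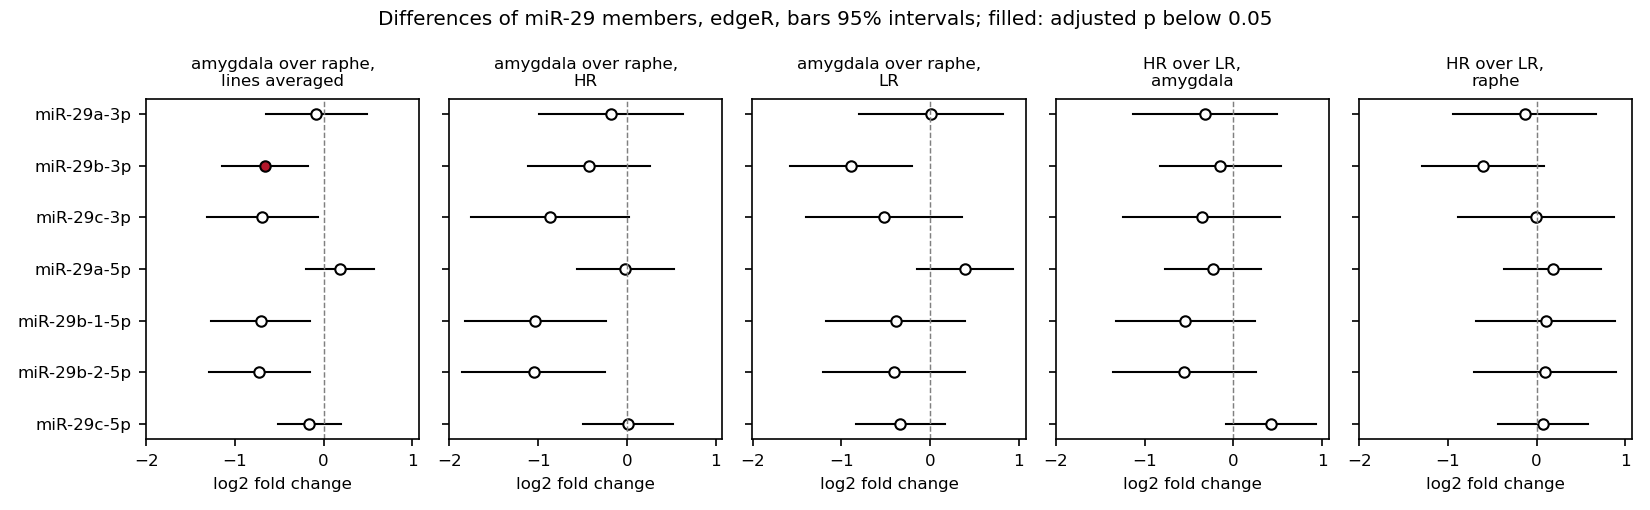
Log2 fold changes of the 7 members with 95% intervals, from edgeR, for amygdala over dorsal raphe (mean of both lines, high responders, low responders) and for high over low responders (amygdala, then dorsal raphe). The 1 filled point, miR-29b-3p at -0.66, is the call at an adjusted p of 0.05, and the intervals of miR-29a-3p, miR-29a-5p and miR-29c-5p cross 0 in each of the 5 panels.

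Ratios of counts within a library do not depend on the scaling between libraries, and so show how the members stand to each other. miR-29c-3p had 1.56%, 1.89%, 1.83% and 2.04% of the counts of miR-29a-3p in high responder amygdala, and 2.14%, 2.08%, 1.71% and 1.98% in low responder amygdala. In dorsal raphe the share was 2.96%, 2.94%, 3.31% and 2.96% in high responders and 2.69%, 2.76%, 3.04% and 2.64% in low responders. All 8 amygdala libraries were below all 8 raphe libraries, also those that stand apart, with means of 1.90% ± 0.197 in amygdala and 2.91% ± 0.216 in dorsal raphe (SD, n = 8 each). The lines overlapped within each region. This was 1 of 11 ratios between 2 members, 9.09%, and 10.5% of all pairs of the 400 miRNAs had ratios without overlap between the regions. As miR-29a-3p and miR-29c-3p differ at 1 base, the shares are uncertain to the extent that reads of one were counted as the other.

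miR-29b-3p stood differently to miR-29a-3p. In high responder amygdala it had 12.2%, 9.81%, 5.13% and 5.50% of the counts of miR-29a-3p, and in low responder amygdala 7.47%, 5.91%, 5.24% and 6.03%. High responder dorsal raphe had 7.91%, 7.48%, 9.40% and 7.09%, and low responder dorsal raphe 6.68%, 6.95%, 8.68% and 33.6%. The last value, of replicate 4, was the highest of all 16 libraries, and the next highest came from high responder amygdala replicates 1 and 2. The regions overlapped.

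The arms of miR-29c were also set against each other. miR-29c-5p had 111%, 67.3%, 38.5% and 28.5% of the counts of miR-29c-3p in high responder amygdala, against 25.9%, 23.9%, 25.1% and 22.7% in high responder dorsal raphe, without overlap. In low responders the shares were 35.3%, 23.7%, 27.4% and 22.2% in amygdala and 19.4%, 21.3%, 18.4% and 45.6% in dorsal raphe, and overlapped. The overlap came from the 45.6% of replicate 4, a library that stands apart. The rest of its group lay below all low responder amygdala libraries. Of the 11 ratios 4 had no overlap between the regions in high responders, or 36.4%, against 40.8% of all pairs of miRNAs. In low responders 2 had none, or 18.2%, against 24.6% of all pairs. These shares were below those of all pairs.

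**Figure D4:**
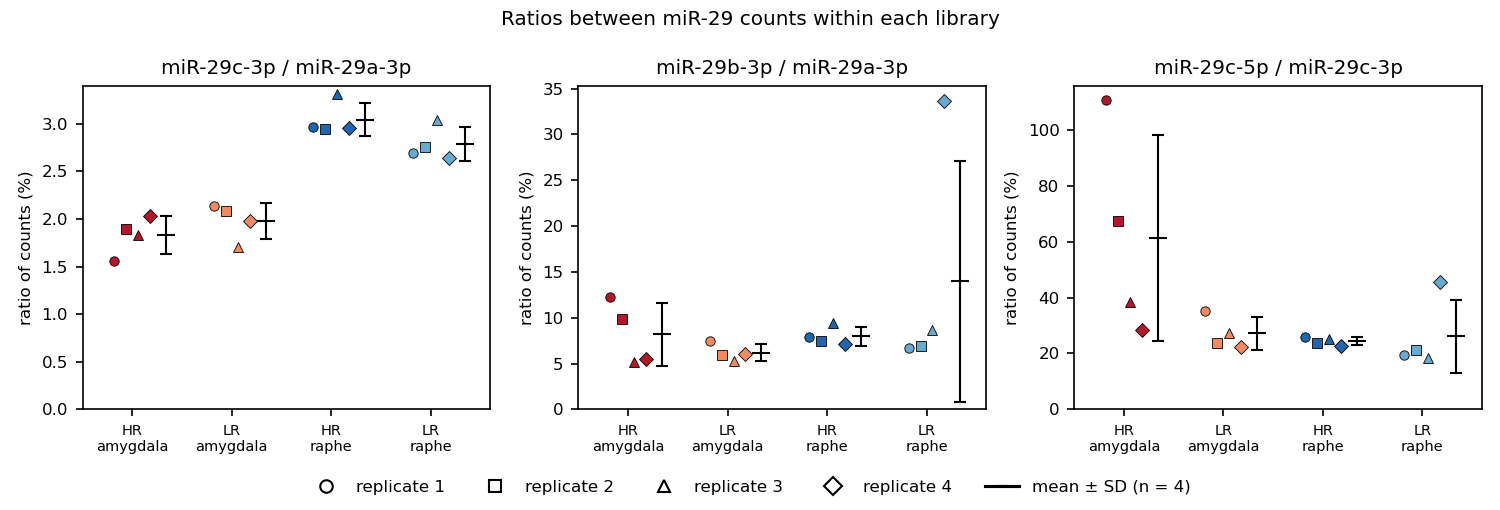
Counts of miR-29c-3p and miR-29b-3p as a percentage of those of miR-29a-3p, and counts of miR-29c-5p as a percentage of those of miR-29c-3p, in each library, with the mean ± SD of each group (n = 4). The first ratio separates amygdala (1.56% to 2.14%) from dorsal raphe (2.64% to 3.31%), and the second has 1 value of 33.6% far above the rest of its group.

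The comparison of the lines asks whether the family goes with the bred trait. In amygdala 0 of the 7 members were called between high and low responders, as were 0% of all 639 miRNAs. No member had lines without overlap, as 8.76% of all miRNAs had, or an unadjusted p under 0.05, against 10.2%, and DESeq2 called none of the 7. The lowest p was that of miR-29c-5p, at 139 ± 20.1 CPM in high responders against 104 ± 12.8 CPM in low responders (SD, n = 4 each), a log2 fold change of 0.42 with a 95% interval of -0.09 to 0.93 (adjusted p = 0.601 in edgeR). The 6 other members had negative fold changes, from -0.55 for miR-29b-2-5p to -0.15 for miR-29b-3p, and their intervals reached from -1.36 to 0.54.

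Set against the 5p arm of the Mir29a gene, miR-29c-5p separated the lines in amygdala. Its counts were 6.87, 8.83, 6.65 and 7.95 times those of miR-29a-5p in high responders, against 5.35, 4.05, 5.47 and 4.36 times in low responders. This was 1 of the 11 ratios, 9.09%, while 14.4% of all pairs of miRNAs had ratios without overlap between the lines in amygdala. In dorsal raphe this ratio was 6.30 to 7.95 in high responders and 7.07 to 9.11 in low responders. There 0 of the 11 ratios between 2 members were without overlap, against 3.7% of all pairs. The share of the 3p arms in the family's counts, which is a sum over members and not among those 11, was 98.30% to 98.42% in high responder dorsal raphe and 98.56% to 98.71% in low responder dorsal raphe, without overlap, and has no background computed for it.

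In dorsal raphe 0 of the 7 members were called between the lines, as were 0% of all miRNAs. No member had lines without overlap, as 4.23% of all miRNAs had, or an unadjusted p under 0.05, against 11%, and DESeq2 called none. miR-29b-3p had the lowest p, at 1486 ± 443 CPM in high responders against 2262 ± 1103 CPM in low responders (SD, n = 4 each), a log2 fold change of -0.61 with a 95% interval of -1.29 to 0.08 (adjusted p = 0.583 in edgeR). Without low responder replicate 4 it was -0.10. The 6 other members had fold changes from -0.13 for miR-29a-3p to 0.18 for miR-29a-5p.

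The interaction asks whether the line difference is the same in both regions. No member was called, as were 0% of all miRNAs, and DESeq2 called none of the 7. No member had an unadjusted p under 0.05, against 12.7% of all miRNAs. The estimates ran from -0.65 for miR-29b-2-5p to 0.46 for miR-29b-3p, which was at -0.09 without low responder dorsal raphe replicate 4.

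Depth moved with the levels of 4 members. Within each of the 4 groups the library of lowest total, replicate 1 of high responder amygdala, low responder amygdala and high responder dorsal raphe and replicate 4 of low responder dorsal raphe, had the lowest scaled level of miR-29a-3p, miR-29c-3p, miR-29b-1-5p and miR-29b-2-5p. Of all 639 miRNAs 101, or 15.8%, had this pattern, against 4 of the 7 members. These are not independent, as miR-29b-1-5p and miR-29b-2-5p hold nearly the same counts. Before TMM scaling both were lowest in replicate 2 of high responder dorsal raphe (88.1 and 85.6 CPM), below replicate 1 (93.0 and 91.8 CPM). In scaled level miR-29b-3p and miR-29c-5p had the pattern in the 3 other groups and the opposite in low responder dorsal raphe. Before scaling miR-29c-5p was lowest in replicate 4 of low responder dorsal raphe (82.5 CPM). In low responder amygdala it was then lowest in replicate 4 (100.8 CPM), and in high responder dorsal raphe in replicate 2 (125.5 CPM). miR-29b-3p was then lowest in replicate 2 of high responder dorsal raphe (1333 CPM) and highest in replicate 4 of low responder dorsal raphe (2301 CPM). The lowest totals of the 4 groups were 1741167, 3742902, 2419326 and 2096188 counts, and so were unlike between the groups. The part of depth in the differences was not tested.

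**Figure D5:**
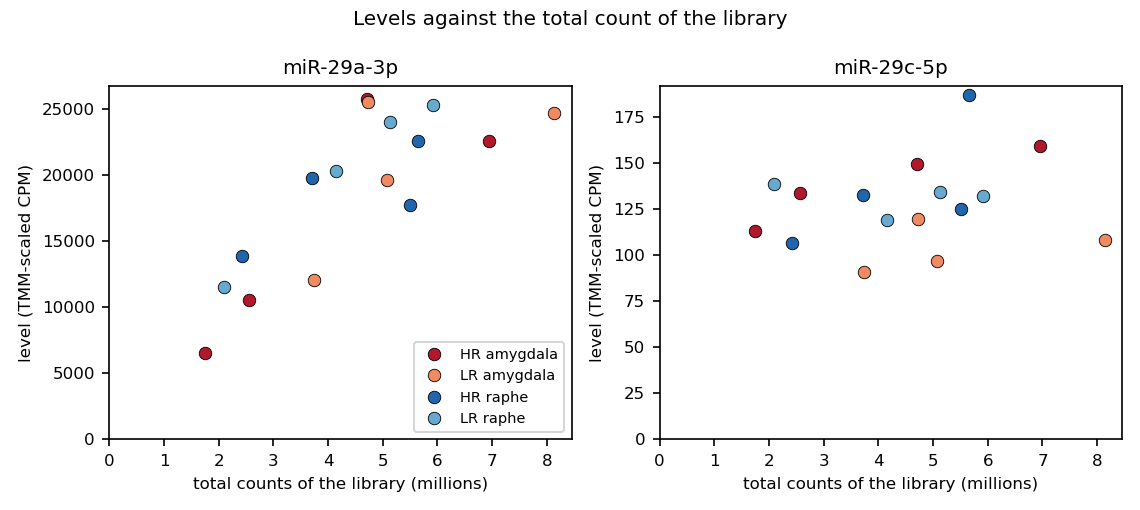
Levels of miR-29a-3p and miR-29c-5p as TMM-scaled CPM against the total count of the library (axis in units of 1000000 counts), 1 point for each of the 16 libraries. The 4 libraries of lowest total in their groups, at 1741167 to 3742902 counts, hold the lowest miR-29a-3p of each group. They also hold the lowest miR-29c-5p, except in low responder dorsal raphe, where that library holds the highest. Before scaling that library held the lowest miR-29c-5p of its group (82.5 CPM). miR-29c-5p ran from 90.8 to 187 CPM over all libraries.

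How the members varied together depended on the 2 libraries that stand apart. Over the 16 libraries the Pearson r of log2 CPM was 0.90 between miR-29a-3p and miR-29c-3p, from different gene pairs, 0.98 after the mean of each group was taken away, and 0.80 without the 2 libraries that stand apart. miR-29b-3p has a gene in each of the gene pairs and a single row. Its r was 0.32 with miR-29a-3p and 0.50 with miR-29c-3p, and 0.71 and 0.88 without those 2 libraries. miR-29b-3p and its arm miR-29b-1-5p had 0.32, and 0.78 without them. These points share their libraries and their depth, and the values are descriptions.

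Among the 400 miRNAs outside the family with a mean of at least 10 CPM, those most like each 3p arm were named by the same r over 16 libraries. miR-29a-3p was most like miR-191a-5p (0.95), miR-142-5p (0.94), a leukocyte miRNA, and miR-31a-5p (0.94). miR-29b-3p was most like miR-376a-3p (0.90) and miR-485-3p (0.88), of the imprinted Dlk1-Dio3 cluster, and miR-181c-5p (0.86). miR-29c-3p was most like miR-154-5p (0.97) and miR-376b-3p (0.97), of the same cluster, and miR-384-3p (0.97). Without the 2 libraries that stand apart these values lay between 0.69, for miR-181c-5p, and 0.97.

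Other miRNAs reported to target DNA methyltransferases, mostly in human cells, were read beside the family. Of 9 listed names 8 were tested, and averaged over the lines 0 were called higher and 1 lower in amygdala, with a median log2 fold change of -0.42. Of all 639 miRNAs 9.39% were called higher and 14.9% lower, and their median was -0.08, so the count was near the background. The 1 was miR-185-5p, at 1611 ± 365 CPM in amygdala against 2342 ± 387 CPM in dorsal raphe (SD, n = 8 each), a log2 fold change of -0.55 ± 0.18 (SE) with an adjusted p of 0.0370 in edgeR. miR-126a-3p, also an endothelial miRNA, had -0.63 (SE 0.22, adjusted p = 0.0503), and miR-152-3p had 0.56 (SE 0.24, adjusted p = 0.0894).

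Markers of cell types also differed between the regions, and their part in the family's values was not tested. The counts below stand against the same 9.39% called higher and 14.9% called lower of all miRNAs. Of 7 astrocyte and glia miRNAs 1 was called higher in amygdala, miR-449a-5p (1.33), and 1 lower, miR-21-5p (-0.65), with a median log2 fold change of -0.33 and summed levels of 47049 to 70422 CPM in amygdala against 55206 to 164467 CPM in dorsal raphe. Of 5 oligodendrocyte miRNAs 3 were lower, such as miR-338-3p (-1.18), with a median of -0.87 and sums of 4960.0 to 13596 CPM in amygdala against 10272 to 40550.5 CPM in dorsal raphe. For both lists the highest raphe sum came from 1 low responder library, while the medians of that group were 70340.5 and 16123 CPM. Of 7 neuron miRNAs 4 were higher, such as miR-132-3p (1.73), with a median of 0.92 and sums of 84662 to 142238 CPM in amygdala against 39082 to 61431 CPM in dorsal raphe.

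The 4 choroid plexus miRNAs were all higher in amygdala, with a median of 1.74 and sums of 2091 to 49361 CPM in amygdala against 2468 to 7011 CPM in dorsal raphe. All 4 were called within high responders (median 2.78), where 13.1% of all miRNAs were. Within low responders 1 was called (median 0.69), where 14.1% of all miRNAs were. The amygdala sums were 33269 to 49361 CPM in high responders and 2091 to 47793 CPM in low responders. Of the 5 microglia and leukocyte miRNAs tested 1 was lower, miR-150-5p (-0.71), with a median of -0.24 and sums of 423 to 1617 CPM in amygdala against 1110.1 to 1653 CPM in dorsal raphe. The 4 vascular miRNAs had 0 calls, a median of -0.65 and sums of 33079 to 49737 CPM in amygdala against 43760 to 119228 CPM in dorsal raphe. The highest of these raphe sums came from 1 low responder library, in a group with a median of 53609 CPM. The vascular, astrocyte and glia, and DNA methyltransferase lists share a miRNA, so their values are not independent. The 3 erythrocyte miRNAs had 0 calls, a median of 0.23 and sums of 68.1 to 348 CPM in amygdala against 85.7 to 245 CPM in dorsal raphe. None of these markers was at 0 in a library, and 0 members of each list were called between the lines or in the interaction (edgeR).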

How the data were processed

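Small RNA of dorsal raphe and amygdala was sequenced after miRNeasy extraction and size selection, per the labels' protocols. The authors deposited whole counts per mature miRNA, 1 table of 722 per library. Among the tools, per the submitters' processing notes, were Bowtie2, cutadapt 1.3.1 and bedtools 2.14.2. The build, settings and annotation were not given in the sources used here. Counts were used as deposited. Totals differed between libraries, and the chi-square over its degrees of freedom was at least 55.4 in each of 120 pairs of libraries, so none was a copy.

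edgeR 4.0.16 (R 4.3.3) with TMM factors, filterByExpr (minimum count 10, minimum total 15) and robust quasi-likelihood fits gave 1 mean for each of the 4 groups over 16 libraries. The biological coefficient of variation was 0.426. Benjamini-Hochberg adjustment ran over the 639 miRNAs tested. log2 CPM used a prior count of 2. The procedure was tested on simulated data. Alternatives were DESeq2 1.42.0, library totals as the scaling, no filter, leaving out libraries, and the replicate number as a block.

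Same-numbered high and low responder amygdala libraries deviated together from their group means (correlations 0.713, 0.310, 0.166 and 0.538, where 0.1 was the criterion). The numbers were therefore used as a pairing in an alternative fit, though no label explains them. Libraries of different numbers were not compared, and replicate 1 had the lowest total in both groups, so the criterion cannot show pairing. Every other pair of groups had 1 or more correlations of 0.1 or less.

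Named are the 7 members, the 3 miRNAs most like each 3p arm and up to 3 of each list by lowest p. Members and lists were chosen with earlier results of these data known. A count of 3, which stands for 0.369 to 1.72 CPM, was the floor, and covers counting error only.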

Additional observations from a re-analysis of the deposited data

Results flagged for a closer look

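Values far from the other 3 libraries of their group were found in 8 of 84 groups of 4 examined, where chance gives about 1 in 20. Of these, 6 came from low responder dorsal raphe replicate 4, and they are not independent, as they share this library and its counts. miR-29a-3p held 72.3% of the family's counts there, against 88.4% to 90.2% in the 3 other libraries, and miR-29b-3p stood at 33.6% of miR-29a-3p, against 6.68% to 8.68%. miR-29c-3p was 7.86% of miR-29b-3p, against 35.1% to 40.3%. miR-29a-5p was 0.133% of miR-29a-3p, against 0.0703% to 0.0791%. miR-29c-5p was 45.6% of miR-29c-3p, against 18.4% to 21.3%, and 4.02 times miR-29b-2-5p, against 1.18 to 1.38 times.

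The other 2 values came from different libraries. In high responder dorsal raphe replicate 3, miR-29c-3p was 3.31% of miR-29a-3p, against 2.94% to 2.96% in the others. In low responder amygdala replicate 1, miR-29b-2-5p was 4.16% of miR-29b-3p, against 5.45% to 5.70%.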

How the results depend on the processing

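Averaged over the lines, where 1 member was called between the regions, DESeq2 called 3 (203 of all 639 miRNAs), library totals as the scaling 3 (177 of 639), no filter 0 (153 of 722) and leaving out both libraries that stand apart 2 (212 of 648), and leaving out 1 library gave 0 to 3. Of all miRNAs 60 were called higher and 95 lower in amygdala, against 100 and 103 with DESeq2 and 128 and 84 without both libraries, where the median log2 fold change of all miRNAs was 0.22 rather than -0.08. In high responders 84 miRNAs (42 higher, 42 lower) and 0 members were called, against 131 and 2 with DESeq2, 111 (40 higher, 71 lower) and 2 with library totals, 138 (86 higher, 52 lower) without both libraries, and 61 to 128 and 0 to 2 with 1 library left out. In low responders 90 miRNAs (23 higher, 67 lower) were called, against 34 higher and 54 lower with totals, 75 and 54 without both libraries, 40 and 68 with DESeq2, and 47 to 94 in number with 1 library left out. Between the lines in amygdala 0 miRNAs were called, against 11 with DESeq2, 2 with totals, 9 without both libraries and 0 to 2 with 1 left out. For the interaction 0 were called, against 12 with DESeq2, 1 with no filter, 3 without both libraries and 0 to 1 with 1 left out. The cause was not tested.

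With the replicate numbers as a block, 3 members were called averaged over the lines (miR-29b-3p -0.64, miR-29b-1-5p -0.78, miR-29b-2-5p -0.80), with 188 of all 639 miRNAs, and 1 in low responders, with 105 of 639. No amygdala group met the criterion for pairing by number with a raphe group, so these calls rest on a block that the data do not bear out. In amygdala a block by number over the libraries of that region called 0 of 612 miRNAs, though the data cannot show that the numbers pair the lines.

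The log2 fold changes that changed sign belonged to members that did not pass. Averaged over the lines, without both libraries, miR-29a-3p was 0.13 and miR-29c-5p 0.0816, and with 1 left out they ran from -0.14 to 0.17 and from -0.21 to 0.0430. In high responders miR-29a-3p was 0.21 without both libraries, miR-29a-5p 0.0132 with DESeq2 and 0.17 without both, and miR-29c-5p -0.16 with totals and -0.0218 with no filter. With 1 left out they ran from -0.44 to 0.12, -0.19 to 0.21 and -0.0950 to 0.26. In low responders miR-29a-3p was -0.00884 with no filter and -0.10 with the block, and ran from -0.0659 to 0.21. Between the lines in amygdala miR-29b-3p ran from -0.30 to 0.00995. In dorsal raphe miR-29a-3p was 0.00901 with totals and ran from -0.21 to 0.0174. miR-29b-1-5p was -0.0678 and miR-29b-2-5p -0.0778 without both libraries, and they ran from -0.0177 to 0.27 and from -0.0277 to 0.26. miR-29c-3p was 0.0931 with DESeq2, 0.13 with totals and 0.00145 with no filter, and ran from -0.0936 to 0.20. In the interaction miR-29a-3p was 0.16 and miR-29c-3p 0.0412 without both libraries, and miR-29b-3p ran from -0.0864 to 0.56.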
